A study of Mus musculus with 2 samples.

Results

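The trophectoderm genes described here are 10 protein-coding genes that mark or specify the outer layer of the mouse blastocyst. They are Tead4, Cdx2, Eomes, Tfap2c, Elf5, Hand1, Ascl2, Krt8, Krt18 and Plet1, chosen by name, out of 20583 protein-coding genes analysed. Trimethylation of histone H3 at lysine 4 (H3K4me3), a mark found at the starts of active genes and of many silent CpG-rich genes, was profiled by chromatin immunoprecipitation and sequencing (ChIP-seq) in E14TG2a.4. This is a male mouse embryonic stem cell line of strain 129/Ola, labelled as embryonic and of age 3.5 days. The 2 samples form 1 group, are labelled as biological replicates of the same line and carry no treatment, so no contrast between conditions could be tested.

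Trophectoderm is the first epithelium of the embryo and gives rise to the placenta. In outer cells Hippo signalling is low, and the coactivator Yap1 enters the nucleus and works with the DNA-binding protein Tead4 to switch on Cdx2. Eomes, Tfap2c and Elf5 then act with Cdx2 to maintain trophoblast stem cells, while Hand1 and Ascl2 act in trophoblast giant cells and in the spongiotrophoblast. Embryonic stem cells come from the inner cell mass, which gives rise to the embryo proper, and the Elf5 promoter is a known example of a gene closed to the embryonic lineage by DNA methylation.

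In these stem cells 9 of the 10 genes carried an H3K4me3 peak within 1 kb of their 5′ end, and Elf5 was the exception. In the authors' replicated list 68.4% of all protein-coding genes had such a peak. In that list 8 of the 9 lay below the median signal of all marked genes. Within the set Tead4, Tfap2c and Eomes had the strongest peaks there, Ascl2 and Krt18 intermediate ones, and Cdx2, Krt8, Hand1 and Plet1 the weakest. In the replicated list the domains of Tfap2c, Tead4, Hand1, Eomes and Cdx2 were each wider than those of at least 75.3% of marked genes. That of Hand1 was narrower in replicate 1, at 2791 bp. Tfap2c differed most between the replicates in the signal of the 1 kb window, at 12.3 and 40.7. By the highest peak of its domain it had 34 and 40.7. Hand1 and Krt18 differed in the width of their domains.

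The promoter sequences show how unlike these starts are in CpG content, the feature that most H3K4me3 promoters share. RefSeq promoters of GRCm38.p6 (mm10) were found for 7 of the 10 genes, with 8 starts, and Tead4, Tfap2c and Hand1 were not matched. Below are the 250 bases upstream of 6 of these starts, 5′ to 3′ in the direction of the gene, with each CpG in capitals. They were chosen to set both unmarked Elf5 starts beside marked starts that are poor in CpG (Plet1, Krt8) and rich in CpG (Krt18, Ascl2).
Elf5 first start, plus strand, chr2:103411848-103412097: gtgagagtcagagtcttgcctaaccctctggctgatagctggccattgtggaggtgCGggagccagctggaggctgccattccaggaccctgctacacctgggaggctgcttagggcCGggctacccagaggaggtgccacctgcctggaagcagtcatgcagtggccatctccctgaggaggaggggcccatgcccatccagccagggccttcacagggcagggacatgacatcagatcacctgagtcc
Elf5 second start, plus strand, chr2:103423818-103424067: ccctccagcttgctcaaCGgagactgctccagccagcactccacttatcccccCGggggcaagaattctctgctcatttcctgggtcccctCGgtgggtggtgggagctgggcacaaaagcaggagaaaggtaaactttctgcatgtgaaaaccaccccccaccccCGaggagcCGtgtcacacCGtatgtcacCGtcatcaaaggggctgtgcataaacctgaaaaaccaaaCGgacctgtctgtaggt
Plet1, plus strand, chr9:50494275-50494524: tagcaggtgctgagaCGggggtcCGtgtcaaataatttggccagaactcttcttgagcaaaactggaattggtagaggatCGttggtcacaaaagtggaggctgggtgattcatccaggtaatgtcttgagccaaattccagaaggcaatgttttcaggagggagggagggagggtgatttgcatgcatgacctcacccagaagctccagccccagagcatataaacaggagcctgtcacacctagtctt
Krt8, minus strand, chr15:102004343-102004592: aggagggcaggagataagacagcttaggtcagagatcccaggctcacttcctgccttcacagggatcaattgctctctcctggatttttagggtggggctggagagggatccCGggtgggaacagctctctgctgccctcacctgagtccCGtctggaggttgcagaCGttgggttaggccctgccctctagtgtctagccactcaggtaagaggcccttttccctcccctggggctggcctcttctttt
Krt18, plus strand, chr15:102027966-102028215: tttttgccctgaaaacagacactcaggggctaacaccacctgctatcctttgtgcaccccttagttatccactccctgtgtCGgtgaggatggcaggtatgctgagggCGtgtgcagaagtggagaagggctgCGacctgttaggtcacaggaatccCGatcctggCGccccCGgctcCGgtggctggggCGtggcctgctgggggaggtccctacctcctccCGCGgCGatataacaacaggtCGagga
Ascl2, minus strand, chr7:142969265-142969514: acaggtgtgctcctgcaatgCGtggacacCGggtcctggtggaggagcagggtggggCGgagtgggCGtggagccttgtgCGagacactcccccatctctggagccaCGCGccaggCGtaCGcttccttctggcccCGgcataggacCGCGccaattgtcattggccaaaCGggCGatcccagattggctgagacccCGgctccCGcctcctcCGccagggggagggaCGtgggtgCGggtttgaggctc

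The first Elf5 start has 2 CpG in the printed stretch and the second has 8. Plet1 and Krt8 have 3 each, Krt18 has 12 and Ascl2 has 19. Over the full 300 bases of the table, which run 50 bases past the start, the median of 20194 protein-coding starts was 14 CpG. Starts with a peak within 1 kb had a median of 20 CpG and those without had 2. In the same 300 bases Ascl2 had 23, Cdx2 18 and Krt18 17, all above the median of all starts, while Eomes had 10, Krt8 6 and Plet1 5.

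Low CpG content was shared by marked and unmarked genes of the set. Of the 6847 starts with no more CpG than Krt8, 21.8% had a peak, and of the 6168 with no more than Plet1, 18.5% did. The first Elf5 start, with 3 CpG, belongs to a class of 4501 starts of which 12.1% were marked. The second Elf5 start and the Eomes start have 10 CpG each, a content at or below which 33% of 8776 starts were marked, and of this pair only Eomes had a peak.

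Short motifs were searched on both strands of the 300 bases. A TATA box (TATAAA) was found in Plet1 from -30 to -25, with the start at 0, and in Krt8, where it spans the start on both strands. This motif was in 12.3% of all starts. The AP-2 motif GCCNNNGGC, in 20.4% of all starts, was found in Krt18 from -83 to -75 and in Cdx2 from -16 to -8. The GC box GGGCGG (47.7% of starts) was found in Ascl2, and the TEAD motif GGAATG (13.4%) in the first Elf5 start on the other strand, from -173 to -168. The E-box CACGTG (8.06%) was in none of the 8 starts. A match is a run of letters only and says nothing of binding.

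The signal of a peak is the authors' ratio of ChIP over control, and a gene's signal is that of the highest peak overlapping a window that reaches 1 kb to each side of its 5′ end. Neighbouring peaks with a gap under 1 kb were merged into a domain, and the width of a gene is that of its widest domain. Shares of marked domains are taken over marked genes, so a domain shared by neighbouring genes counts for each of them. The replicate lists held 86781 and 83750 peaks, the pooled list 98928 and the replicated list 62128. Sequencing depth is unknown, and an unmarked gene is one with no listed peak in the window at the 5′ end used here, so it can have a peak in another list or at another start. Of 8 pluripotent markers 7 were marked in the replicated list, beside the 68.4% of all genes, and their medians were 55.1 for signal and 11443 bp for width. Pou5f1, which encodes Oct4, had 69.4 and its partner Sox2 66.1. Esrrb was unmarked at its mm10 5′ end and had 2.85 in replicate 2 and a region at a vM1 start in mm9. Peaks at these genes do not identify the cells, since genes of other lineages carried peaks too. In these bulk samples a mark in fewer cells and less mark per cell cannot be told apart.

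The same 9 genes were marked in every list. In replicate 1 the share of all protein-coding genes with a peak was 68.7%, in replicate 2 it was 68.6%, and in the pooled list 69.8%. The 3 mm9 lists were read at each transcription start of the GENCODE vM1 annotation, and 9 of the 10 genes again had a region, against 72.4% of 20335 genes in the mm9 list of the whole series. These counts describe 10 genes and were not tested.

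The median signal of the 9 marked genes was 16.2 in the replicated list, beside 43.1 over all 14073 marked genes. It was 12.3 beside 38.5 in replicate 1 and 15.5 beside 36.8 in replicate 2. In each of these lists 1 of the 9 genes lay above the median of all marked genes and 8 below. That gene was Tead4 in replicate 1 and in the replicated list, and Tfap2c in replicate 2. Width went the other way, with a median of 3636 bp beside 2428 bp in the replicated list and 6 of the 9 genes above the median of all marked genes. In replicate 1 the median width was 2791 bp beside 2305 bp, and in replicate 2 it was 3917 bp beside 2311 bp, again with 6 genes above. Other marked genes with a signal at or below a member's in the replicated list were also read for width. They are not genes of like signal, since they take in all weaker ones. The share with a domain as wide was 1.54% for Hand1, 1.95% for Tfap2c, 4.12% for Tead4 and 7.75% for Eomes. It was 8.01% for Cdx2, 8.98% for Plet1, 17.7% for Ascl2, 21.5% for Krt8 and 50.5% for Krt18. With no joining of peaks the width was 1114 bp for Hand1, 3904 bp for Tead4 and 7664 bp for Tfap2c. The other members kept theirs, and the shares were not read at that setting.

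**Figure D1:**
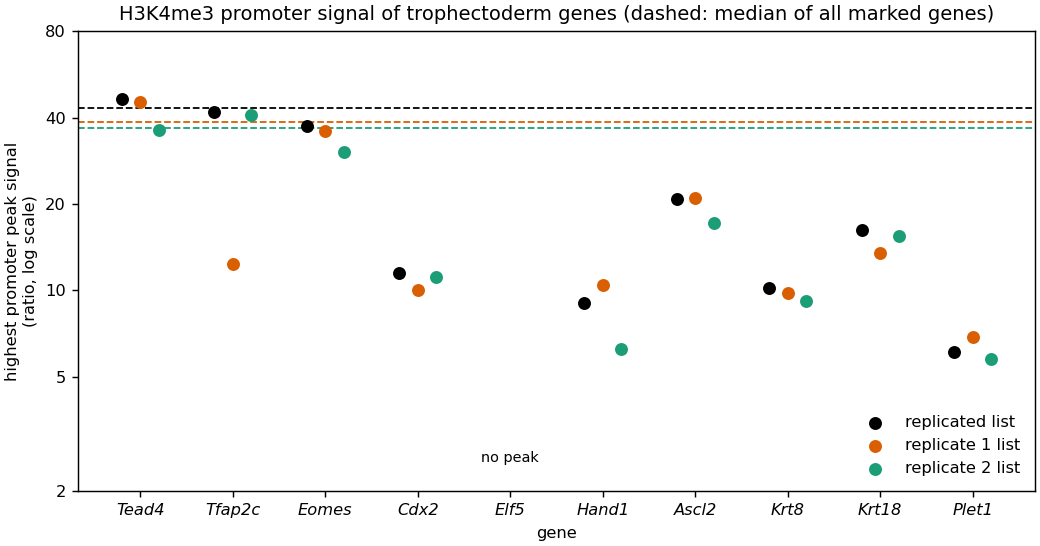
Highest promoter peak signal (ratio of ChIP over control, log axis) of the 10 trophectoderm genes in the replicated list (black) and in the lists of replicate 1 (orange) and replicate 2 (green), with dashed lines at the median of all marked genes in each list. Tead4 and Eomes lie near the medians, Tfap2c at 12.3 in replicate 1 and 40.7 in replicate 2, Plet1 lies lowest between 5.78 and 6.89, and Elf5 has no peak.

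By the mean of the replicates the order of signals was Tead4, Eomes, Tfap2c, Ascl2, Krt18, Cdx2, Krt8, Hand1 and Plet1. The values of neighbours in this order overlapped between Eomes and Tfap2c, between Tfap2c and Ascl2, between Krt8 and Hand1 and between Hand1 and Plet1. They did not overlap for the other neighbours, but with 2 replicates no such gap could be tested. The overlap of Hand1 and Plet1 rests on a Plet1 peak inside the gene in replicate 1. The Plet1 peak over the start there, at 6.12, lay below both Hand1 values.

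**Figure D2:**
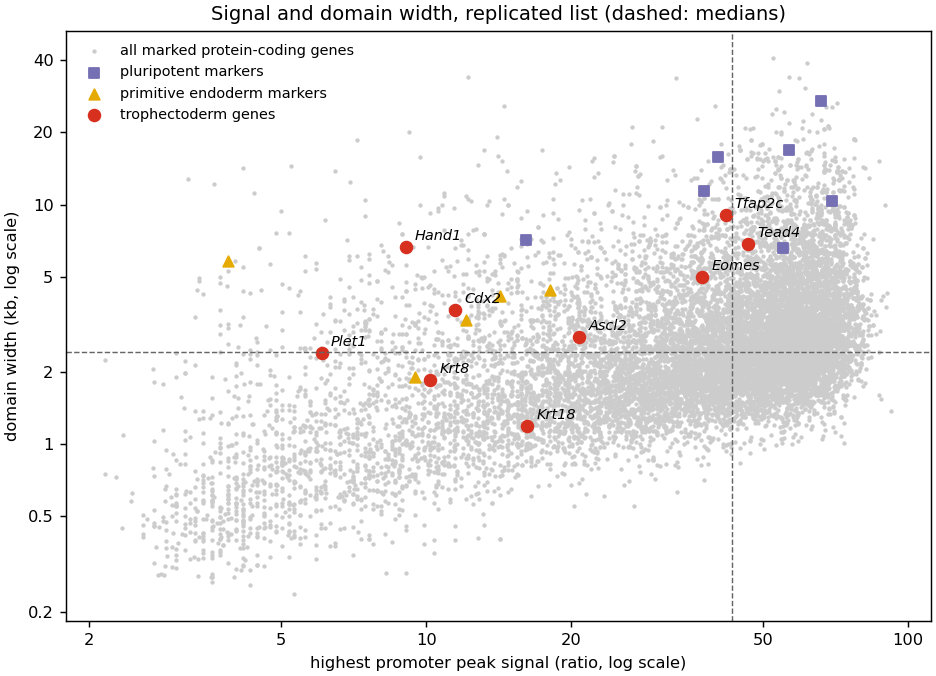
Highest promoter peak signal (ratio, log x axis) against domain width (kb, log y axis) in the replicated list for all 14073 marked protein-coding genes (grey), with the trophectoderm genes in red, pluripotent markers in purple and primitive endoderm markers in yellow, and dashed lines at the medians over all marked genes. Hand1 at 9.06 and Cdx2 at 11.5 lie left of the median signal of 43.1 but above the median width of 2428 bp, and Krt18 lies below it at 1189 bp.

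Tead4, the TEAD factor through which Hippo signalling acts in outer cells, lies on chromosome 6 from 128227143 to 128300813 on the minus strand (mm10). Its signal was 45.3 in replicate 1 and 36.3 in replicate 2 (mean 40.8 ± 6.36, SD, n = 2) and 46.6 in the replicated list, higher than 55.4% of marked genes. Replicate 1 lay above the median of its own list and replicate 2 just below. The domain reached from -874 to 5978 bp relative to the 5′ end, where negative positions are upstream, and its width was 6445 bp in replicate 1, 7174 bp in replicate 2 and 6853 bp in the replicated list, above 93.3% of marked genes. The summit lay 532 bp downstream of the 5′ end, within the gene. The gene and the 10 kb on either side held 12 peaks, the most in the set, over the longest gene of the set at 73671 bp. Among them an intragenic peak from 19177 to 21655 bp downstream had a signal of 9.06, and another from 24465 to 25395 bp had 5.89.

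The vM1 annotation gives Tead4 4 distinct starts over 25246 bp, and each had an mm9 region. The 3 upstream starts shared a region of 7800 bp with a signal of 9.95, and it was 12.1 in replicate 1 and 10.2 in replicate 2. The inner start at 128225595 (mm9) had a region of its own, 1800 bp wide, with a signal of 4.08, and 3.53 and 4.47 in the replicates. The inner start was thus the weaker one in all 3 mm9 lists. Signals on mm9 and mm10 come from different lists and are not on a common scale.

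Cdx2, the homeobox factor that defines trophectoderm identity, lies on chromosome 5 from 147300900 to 147307249 on the minus strand. It had a signal of 10 in replicate 1, 11.1 in replicate 2 (10.6 ± 0.783, SD, n = 2) and 11.5 in the replicated list, so the replicates lay close together and only 11.3% of marked genes were lower. Its single peak was 3099 bp wide in replicate 1, 3550 bp in replicate 2 and 3636 bp in the replicated list, wider than 75.3% of marked domains, and ran from -354 to 3281 bp relative to the 5′ end. Of 1611 other marked genes with a signal as low, 129 (8.01%) had a domain as wide. A second peak of nearly equal signal, 10.2, began 6423 bp downstream, just past the annotated 3′ end of the 6350 bp gene. The mm9 lists placed 1 region of 3600 bp at the single vM1 start, with signals of 11 and 11.8 in the replicates. The nearest 5′ end of another gene, the lncRNA gene Gm35112, was 9271 bp away, outside the Cdx2 domain.

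Eomes, a T-box factor of trophoblast stem cells that also acts later in mesoderm and endoderm, lies on chromosome 9 from 118478186 to 118486132 on the plus strand. Its signal was 36.0 in replicate 1 and 30.3 in replicate 2 (33.1 ± 4.00, SD, n = 2) and 37.4 in the replicated list, below the median of marked genes in each. The domain was 5542 bp in replicate 1, 4479 bp in replicate 2 and 4982 bp in the replicated list, wider than 86.3% of marked domains. It was a single peak in the replicated list but 5 joined peaks in replicate 1 and 4 in replicate 2. A second peak with a signal of 11.4 lay from 8278 to 11851 bp downstream, past the 3′ end. The 5′ end of the lncRNA gene Gm33408, on the opposite strand, lies 546 bp from that of Eomes inside the domain, so the peak cannot be assigned to 1 of the 2 genes. All 3 vM1 starts of Eomes fell in a region of 5200 bp in mm9, with signals of 11.4 and 12.2 in the replicates.

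Tfap2c encodes AP-2 gamma, a factor of trophectoderm and of the germ line, and lies on chromosome 2 from 172545678 to 172558622 on the plus strand. Its promoter signal was 12.3 in replicate 1 and 40.7 in replicate 2, a 3.29-fold difference (log2 of 1.72, mean 26.5 ± 20.0, SD, n = 2), and 41.8 in the replicated list. Replicate 2 and the replicated list were alike, and replicate 1 stood apart. Over 13948 genes marked in both replicates the median of this log2 ratio was -0.05, with a 5th percentile of -0.46 and a 95th of 0.25. This difference was known when the genes were chosen, so it is given as a value with no test.

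The peaks themselves show where the replicates parted. The peak of 41.8 in the replicated list had its summit 4158 bp downstream of the 5′ end, outside the 1 kb window. Replicate 2 had 1 peak from -437 to 6621 bp relative to the 5′ end, with its summit 4197 bp downstream. In replicate 1 the same stretch held 2 peaks, one from -554 to 2651 bp with a signal of 12.3 and one from 2764 to 6592 bp downstream with a signal of 34. The stronger of these lies beyond the 1 kb window of the RefSeq 5′ end, so it does not enter the promoter value. That value holds for this 5′ end only. When the highest peak of the joined domain was taken in place of the peak in the window, the values were 34 and 40.7 (37.3 ± 4.71, SD, n = 2), a 1.2-fold difference or 0.26 on the log2 scale.

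On mm10 the domain width of Tfap2c was close in the replicates. The domain was 8077 bp wide in replicate 1 and 9634 bp in replicate 2, and 9056 bp in the replicated list, wider than 96.5% of marked domains and the widest of the set. It was 14646 bp in the pooled list, which bridged 10 peaks. Joined into domains, the mm9 regions spanned 18400 bp in the list of the whole series, 12400 bp in replicate 1 and 9800 bp in replicate 2. The wider replicate was thus replicate 1 on mm9 and replicate 2 on mm10. In mm9 all 3 vM1 starts, which span 1398 bp, lay in 1 region, 9800 bp wide in the list of the whole series. The signal there was 22.1 in replicate 1 and 20.8 in replicate 2. That region ran from -5692 to 4107 bp relative to the first vM1 start. The mm10 domain of the replicated list ran from -1679 to 7376 bp relative to the RefSeq 5′ end. The higher replicate was thus replicate 1 on mm9 and replicate 2 on mm10. The starts read on mm9 and mm10 lay at unlike distances from the domain edges. The vM1 starts lay 4107, 2918 and 2709 bp from the downstream edge of the mm9 region. The RefSeq 5′ end lay 7376 bp from that of the mm10 domain. The mm10 window may thus miss starts further into the gene, and the effect of this was not tested.

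The 3 genes whose pair of replicate signals was most like that of Tfap2c, by Euclidean distance of log2 signals over 2 replicates among 13947 other genes, were Ehbp1l1, Sp2 and Sfmbt2. Their signals were 11.5 and 46.4 for Ehbp1l1 (distance 0.216), 13.2 and 35.1 for Sp2 (0.231), and 11 and 30.8 for Sfmbt2 (0.433). The highest peak of their domains gave 54.8 and 46.4 for Ehbp1l1, 60.2 and 58.8 for Sp2, and 30.1 and 30.8 for Sfmbt2. These genes were picked for their window signals, so nothing is drawn from the smaller gaps by domain.

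**Figure D3:**
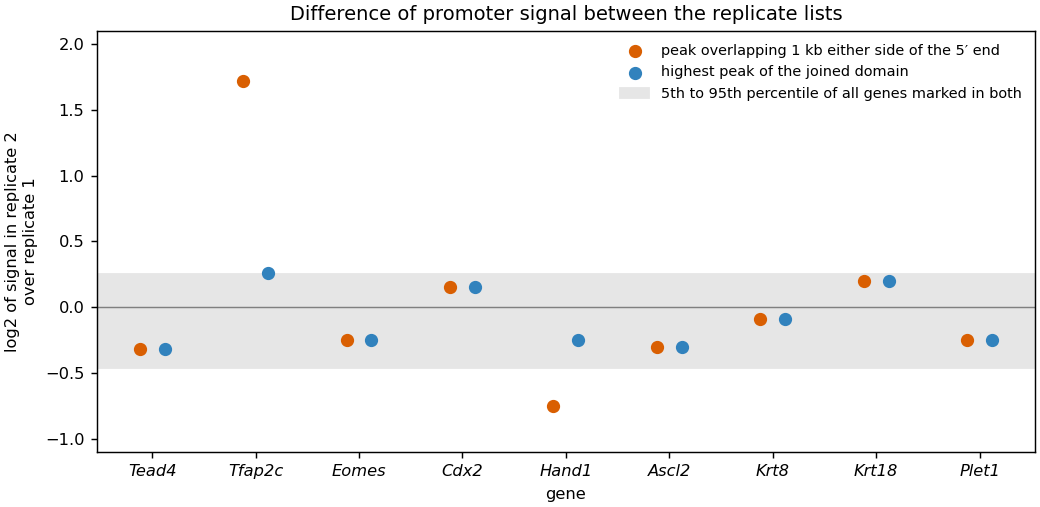
Log2 of the signal in replicate 2 over replicate 1 for the 9 marked genes, from the highest peak in the 1 kb window (orange) and from the highest peak of the joined domain (blue), with the 5th to 95th percentile of all genes marked in both replicates in grey. Tfap2c moves from 1.72 to 0.26 and Hand1 from -0.75 to -0.25, and the other 7 genes have the same value by both measures.

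**Figure D4:**
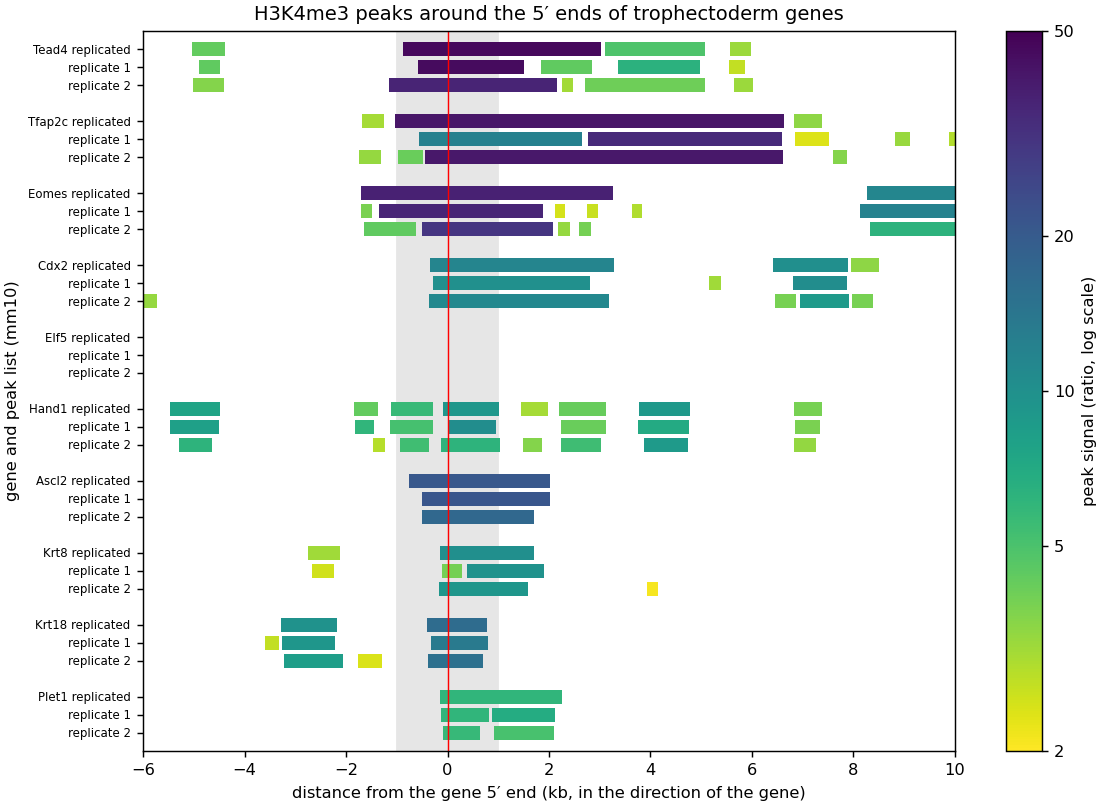
H3K4me3 peaks (mm10) from 6 kb upstream to 10 kb downstream of each 5′ end (red line, x axis in kb in the direction of the gene) in the replicated list and in the lists of replicates 1 and 2, coloured by signal on a log scale, with the 1 kb window in grey. Tfap2c shows 1 long dark peak in replicate 2 over a stretch split into 2 peaks in replicate 1, with weaker peaks beside it in both. Hand1 shows a row of short weak peaks, and Elf5 an empty row.

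Elf5, an ETS factor that acts with Cdx2 and Eomes in trophoblast stem cells, lies on chromosome 2 from 103412098 to 103450989 on the plus strand. It had no peak within 1 kb of its 5′ end in any of the 4 mm10 lists. The nearest peak of the replicated list lay 46874 bp downstream, beyond the 3′ end, and was 848 bp wide with a signal of 3.31. In replicate 1 the nearest peak lay 47048 bp away with a signal of 3.56, and in replicate 2 it lay 47116 bp away with a signal of 2.59. This was the only peak within 10 kb of the gene in each list, so the gene body and both of its flanks were otherwise empty. The second RefSeq start, 11970 bp downstream of the first, was 34904 bp from that peak and also unmarked. In mm9 none of the 4 vM1 starts, spread over 13140 bp, had a region in any of the 3 lists.

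Hand1, a basic helix-loop-helix factor of trophoblast giant cells and of the heart, lies on chromosome 11 from 57828713 to 57832147 on the minus strand. Its signal was 10.4 in replicate 1, 6.22 in replicate 2 (8.33 ± 2.99, SD, n = 2) and 9.06 in the replicated list, where 8.62% of marked genes were lower. The domain was 2791 bp wide in replicate 1 and 6216 bp in replicate 2, a 2.23-fold difference, and 6627 bp in the replicated list, wider than 92.7% of marked domains. The wide domain was a chain of 6 short peaks that covered 74% of it, the widest being 1114 bp. The replicates parted at a single weak link, since replicate 2 had a peak of signal 3.63 from 1492 to 1860 bp downstream and replicate 1 had none there. Of 1237 other genes with a signal as low, 19 (1.54%) had a domain as wide. The 5′ end of the lncRNA gene Gm32915, on the opposite strand, lies 39 bp away, so the peaks cannot be assigned to Hand1 alone. Both vM1 starts lay in an mm9 region of 3000 bp with a signal of 6.37, and the replicates had 7.73 and 5.11. Joined into domains, the mm9 regions spanned 7200 bp in the list of the whole series, 7000 bp in replicate 1 and 3000 bp in replicate 2, so the wider replicate was replicate 1 on mm9 and replicate 2 on mm10.

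Ascl2, a basic helix-loop-helix factor needed for the spongiotrophoblast, lies on chromosome 7 from 142966822 to 142969264 on the minus strand. Its signal was 21.0 in replicate 1, 17.1 in replicate 2 (19.1 ± 2.79, SD, n = 2) and 20.8 in the replicated list, where 21.7% of marked genes were lower. The width was 2532 bp in replicate 1, 2226 bp in replicate 2 and 2792 bp in the replicated list. It was the plainest pattern of the set, a single peak from -769 to 2022 bp and no other peak within 10 kb of the gene in any mm10 list. In mm9 the region at its start was 2800 bp wide, with a signal of 22.0 in replicate 1 and 22.3 in replicate 2.

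Krt8 and Krt18 encode the partner keratins of simple epithelia, which pair into the first intermediate filaments of the trophectoderm. Both lie on chromosome 15, Krt8 from 101996711 to 102004342 on the minus strand and Krt18 from 102028216 to 102032026 on the plus strand, with 23874 bp between their 5′ ends. Krt8 had a signal of 9.79 in replicate 1, 9.20 in replicate 2 (9.49 ± 0.419, SD, n = 2) and 10.2 in the replicated list. Krt18 had 13.5 in replicate 1, 15.5 in replicate 2 (14.5 ± 1.42, SD, n = 2) and 16.2 in the replicated list. Krt18 was thus the higher of the pair in every mm10 list, although both stood low, above 16.7% and 9.82% of marked genes.

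The keratin pair also differed in domain width. Krt8 had a domain of 2018 bp in replicate 1, 1754 bp in replicate 2 and 1846 bp in the replicated list, wider than 30.7% of marked domains. In replicate 1 the peak over the Krt8 start itself had a signal of 3.92, and the stronger one began further into the gene. The Krt18 domain was 1134 bp in replicate 1, 1189 bp in the replicated list (wider than 11% of marked domains) and 3917 bp in replicate 2, a 3.45-fold difference between the replicates. An upstream peak from -3287 to -2178 bp relative to the Krt18 5′ end, with a signal of 9.78, was present in both replicates at 9.21 and 8.29. Of the replicates only replicate 2 joined it to the promoter, through a peak of signal 2.4 from -1763 to -1297 bp. The pooled list joined it as well, in a domain of 4653 bp. The mm9 region at Krt18 was 4400 bp wide in the list of the whole series and in replicate 2, and 1800 bp in replicate 1. In mm9 the order of the pair was not the same, with 5.75 for Krt8 and 5.56 for Krt18 in the list of the whole series and 8.93 and 7.8 in replicate 1.

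Plet1, a surface protein of trophoblast progenitors, lies on chromosome 9 from 50494525 to 50505639 on the plus strand and had the weakest peak of the set. Its signal was 6.89 in replicate 1, 5.78 in replicate 2 (6.33 ± 0.782, SD, n = 2) and 6.07 in the replicated list, where 5.07% of marked genes were lower. The domain was 2252 bp in replicate 1, 2185 bp in replicate 2 and 2400 bp in the replicated list, near the median of all marked genes, and lay almost wholly downstream of the 5′ end. Each replicate gave 2 peaks there and the replicated list 1. The 6.89 of replicate 1 is that of the peak from 886 to 2117 bp downstream, and the peak over the start had 6.12. In replicate 2 the 5.78 is that of the peak over the start. The lncRNA gene Plet1os overlaps the domain on the opposite strand, but its 5′ end is 10280 bp away. The mm9 region was 3000 bp wide with a signal of 4.97, and 4.93 and 4.65 in the replicates.

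The family members of these factors were read in the same way. All 3 other TEAD genes were marked, with signals of 60.5 for Tead1, 44.9 for Tead2 and 44.1 for Tead3, and Tead1 had a domain of 22294 bp. Tfap2c, at 41.8 in the replicated list, stood above its 4 paralogs, of which Tfap2e had 15.1 and Tfap2a, Tfap2b and Tfap2d had 6.04, 5.18 and 7.48. In replicate 1 the order with Tfap2e turned, at 12.3 for Tfap2c and 15.4 for Tfap2e by the window, and in replicate 2 they had 40.7 and 13.7. Tfap2d had no promoter peak in replicate 2. Eomes at 37.4 stood above Tbx21 at 28.8, and Tbr1 had no peak at its mm10 5′ end but a region at a vM1 start in mm9.

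The Cdx and Elf families were unlike in this respect. Cdx1 had 12.4 and Cdx4 7.62, so all 3 Cdx genes stood low. In the Elf family the broadly expressed Elf1 and Elf2 had 67.7 and 63.7, Elf3 and Elf4 had 17.7 and 18.0, and Ehf, the epithelial ETS factor closest to Elf3 and Elf5, was unmarked like Elf5. Hand2 had 14.1. Of the paralogs of Ascl2, Ascl4 had 27.2 but no mm9 region at a vM1 start, Ascl3 was unmarked and Ascl5 was not in the table. Among simple epithelial keratins Krt19 had 21.1 and Krt7 10.8, and Krt20 was unmarked.

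**Figure D5:**
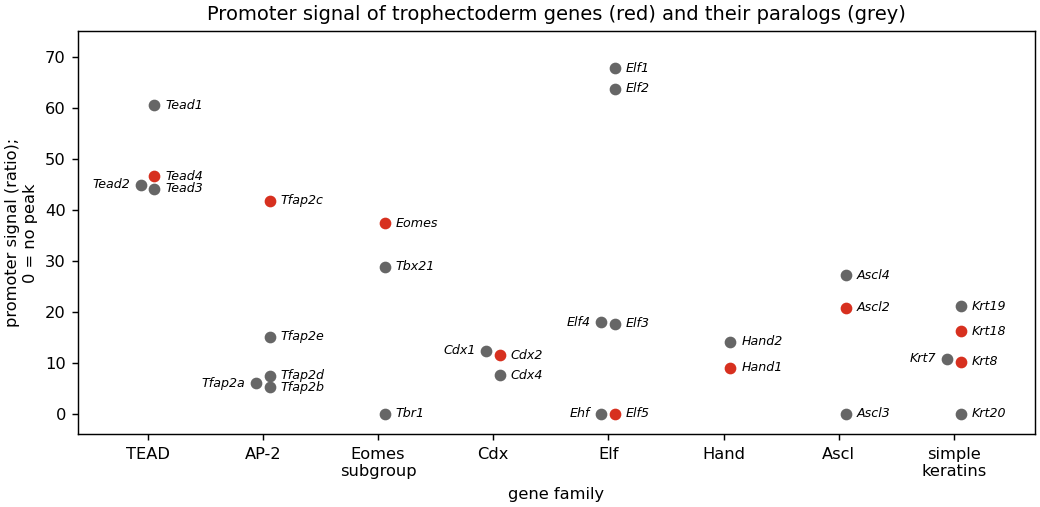
Promoter signal (ratio, linear axis) in the replicated list of each trophectoderm gene (red) and the paralogs described here (grey), by gene family on the x axis, with genes without a peak drawn at 0. Tfap2c at 41.8 lies above its 4 paralogs in this list, though below Tfap2e in replicate 1 (12.3 against 15.4), and Elf5 and Ehf lie at 0 while Elf1 and Elf2 lie at 67.7 and 63.7.

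The wider circuit of the lineage was described from 5 lists of genes. Of 16 further regulators of trophectoderm and trophoblast, 14 were marked in the replicated list, and the medians of these were 31.3 for signal and 2755 bp for width. Klf5 had 69.0 and Ets2 63.1, and Esx1 and Gcm1, a homeobox factor and the main factor of syncytiotrophoblast, had no peak there, though Esx1 had a region at a vM1 start in mm9. All 15 genes of the Hippo pathway, which lies upstream of Tead4, were marked, with a median signal of 48.3. The kinase gene Stk4 had 73.9 and Nf2, which encodes Merlin, 73.5.

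Genes of epithelial form were read in the same way. Of 20 genes of junctions, polarity and the fluid pump of the blastocyst, 19 were marked, and their medians were 52.5 for signal and 3277 bp for width. Prkci, an atypical protein kinase C of the apical domain, had 73.0 and Rab11a, a GTPase of recycling endosomes, 72.2, and the water channel gene Aqp8 was unmarked. Both the Hippo and the junction genes are used in many cell types.

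Of 24 genes of the later placenta 4 were marked, with Flt1 at 22.0 and Pparg at 18.7, and Cts7 and Cts8, placental cathepsins, were among the 20 unmarked. In mm9, read at every vM1 start, 6 of the 24 had a region. Of 49 keratin genes, Krt8 and Krt18 included, 20 were marked, and their medians were 8.7 for signal and 814 bp for width. Krt19 at 21.1 and Krt18 at 16.2 were the highest of these, and Krt1 and Krt10, keratins of the epidermis, were unmarked, though Krt10 had a region of 600 bp at a vM1 start in mm9. In mm9 23 of the 49 had a region. These lists were set beside 68.4% of all genes as counts and were not tested.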

How the data were processed

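H3K4me3 ChIP-seq peak lists were used for 1 group of 2 replicates. On mm10, per the deposited file descriptions, each replicate's list came from its own alignments and 1 control file, a different one for each replicate. The pooled list came from both replicates with both control files, and the replicated list from the other 3 lists. The sources used here do not name the aligner or the peak caller. For each mm10 peak the authors' signal is a ratio, ChIP over control, and in mm9 a deposited ratio of unstated denominator. The deposited mm10 lists give the −log10 of the p-value and q-value of each peak, and the deposited mm9 lists give the p-value and q-value themselves. Edges of mm9 regions lie on a grid of 200 bp.

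Genes are those of the RefSeq table of GRCm38.p6. Its 21887 protein-coding genes carry no strand, which was taken from the vM1 gene of the same name (18392 genes) or synonym (2191 genes), and 1304 genes were left out. Tfap2c is Tcfap2c and Plet1 is 1600029D21Rik in vM1. No coordinate was moved between builds. Values of different lists were set side by side without a test, and the signal ranks peaks within a list. The code was tested on simulated data. Python 3.11.15, pandas 2.3.3, numpy 2.4.6 and matplotlib 3.10.9 were used.

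The members and the lists were chosen with earlier results of these data known. Named genes were the 10 members, their paralogs, the 3 genes most like Tfap2c, and from each further list the 2 highest marked genes by signal and, by alphabet, the first 2 unmarked ones. 1 gene that this rule takes is not reported here. Alternatives were the other lists, each replicate alone, windows of 500 bp and 2 kb, peaks of a q-value under 1e-05, other joining distances, and mm9. Means ± SD over 2 samples describe those samples only, and no p-value was computed.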

Additional observations from a re-analysis of the deposited data

How the results depend on the processing

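The count of 9 marked genes was the same in the pooled list, with either replicate alone, at a q-value under 1e-05, with windows of 500 bp and 2 kb, in mm9 and at every RefSeq start, the last chosen after seeing the data. The median signal of 16.2 ran from 12.3 to 15.5 with 1 replicate left out and was 16.2 under the other mm10 alternatives, including the highest peak of the domain, also chosen after seeing the data. The median width of 3636 bp depended more on the processing. It ran from 2791 to 3917 bp with 1 replicate left out, and was 4653 bp in the pooled list. At a q-value under 1e-05 it fell to 2867 bp. With no joining it was 2792 bp, with joining below 3 kb 4458 bp, and in mm9 at every vM1 start 5200 bp. The median of all marked genes was 2552 bp in the pooled list, and is not given for the stricter q-value, the other joining distances or mm9. Of the 9 single widths, 3 moved by more than the spread between replicates with no joining, 4 with joining below 3 kb, 5 in mm9, 2 in the pooled list and 1 at a q-value under 1e-05, which was Hand1 at 2867 bp. With replicate 1 left out 3 widths and 4 signals moved, and with replicate 2 left out 4 widths and 5 signals. The spread was each gene's own SD of the replicates, so a gene whose replicates lay close was counted as moved after a small shift. The Krt8 signal was counted as moved at 9.79 with replicate 2 left out, from 10.2. The Hand1 signal was not, at 6.22 with replicate 1 left out, from 9.06. These counts therefore do not rank genes or settings by how stable the values were. No member's value moved by more than its spread with the promoter window. The cause of these shifts was not tested beyond the joining itself. No paired analysis was possible because there is only 1 group. Depth limits every unmarked call, since reads and library sizes were not used here.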

Other observations

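Markers of other lineages were read in the same way in the replicated list. There 68.4% of all protein-coding genes were marked, with medians of 43.1 for signal and 2428 bp for width. The counts below were not tested against that share. Of 6 primitive endoderm markers 5 were marked, and their medians were 12.1 for signal and 4161 bp for width. Sox7 had 18.1, Gata6 14.2, Foxa2 12.1, Sox17 9.49 and Pdgfra 3.88, and Pdgfra had no peak in the window in replicate 2 and a signal of 21.6 by the highest peak of its domain. Gata4 had no peak at its mm10 5′ end but a region at a vM1 start in mm9. Of 8 fibroblast markers 5 were marked, with a median signal of 15.7. Fn1, the fibronectin gene, which many cell types use, had 61.7, Thy1 had 23.4, Col1a1 15.7, Col1a2 13.7 and Pdgfrb 5.75, and Col3a1, Acta2 and Postn were unmarked.

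Differences between lists were seen in a few other trophoblast regulators, named here after their values were seen. Gata3, which acts beside Cdx2, had a promoter signal of 13.4 in the replicated list and 13.2 in replicate 2 but no peak in the window in replicate 1. Nr2f2 had 4.17 in the replicated list and 3.67 in replicate 1 but none in replicate 2. Esx1 had 3.11 in replicate 2 and no peak in the window in replicate 1 or the replicated list, and in mm9 it had a region at a vM1 start. Nanog, a pluripotency factor, had 23.9 in replicate 1 and 47.9 in replicate 2, a difference in the same direction as that of Tfap2c by the window. It had no region at a vM1 start in mm9. Of the 9 marked members, 3 had a higher window signal in replicate 2 and 6 a lower one.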
